A study of Mus musculus with 8 samples.

Results

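The ErbB receptors and the EGF-like ligands that bind them were examined in mammary glands with and without Th-POK, the zinc finger transcription factor encoded by Zbtb7b. The 10 genes were chosen by name as the 4 receptors (Egfr, Erbb2, Erbb3 and Erbb4) and 6 ligands (Egf, Areg, Hbegf, Btc, Tgfa and Nrg1), out of 18749 named genes on the array. All 10 had at least 1 probe and together they had 23 probes, but 7 genes passed the filter on dim probes and were among the 14137 genes tested. Erbb4, Areg and Tgfa did not pass it. Number 4 mammary glands were collected on the first day of lactation from C57/Bl6 females, of which 4 were wild type (WT) and 4 were knockout (KO) for Th-POK. No tissue-specific promoter or Cre was named for the KO mice, and the development of helper T cells is known to need Th-POK. Each RNA was hybridised with Cy3 to 1 one-colour Agilent whole mouse genome array, and whole glands were used, with epithelium, fat, vessels and blood cells together. The study's methods name independent sets of biological replicates and do not say whether a set held a gland of each genotype.

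The 4 ErbB receptors are membrane tyrosine kinases that work in pairs. EGFR is bound by EGF, amphiregulin (Areg), TGF-alpha (Tgfa), HB-EGF (Hbegf) and betacellulin (Btc). ErbB3 and ErbB4 are bound by neuregulins such as Nrg1, betacellulin and HB-EGF also bind ErbB4, and ErbB2 has no known ligand of its own and acts as the preferred partner of the others. Most ligands are made as membrane proteins and are released by cleavage at the cell surface. In the mammary gland, amphiregulin acts through stromal EGFR during duct growth at puberty, ErbB4 is known for its part in alveolar differentiation and milk production, and EGF is a component of milk.

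Levels are given as log2 of the normalised intensity of a gene's brightest probe. A log2 level of 1 probe cannot be set against that of another probe, so each gene was compared only with itself between arrays. Probes well above background made up 66.8% to 75.3% of an array, and no spot was saturated. The number of arrays, 4 per genotype, limits the precision. Zbtb7b was not well above background on any KO array and was at least 81.5-fold lower there (limma, adjusted p = 5.71e-09). The WT arrays shared 1 slide and the KO arrays a different one, so genotype and slide cannot be told apart in any comparison given here. In whole glands, fewer cells of a type and less RNA per cell cannot be told apart either. T cell genes were high on 2 WT arrays, replicates 2 and 3, whose mean log2 level over the T cell list was 7.30 and 7.39 against 6.16 to 6.54 on the other arrays. Counts are therefore also given without these arrays, and the part of T cells in the results was not tested.

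Of the 7 genes tested, Egfr, Erbb2 and Btc were higher in KO glands, and none of the 7 passed the test in the lower direction (limma, Benjamini-Hochberg over all genes). At an unadjusted p under 0.05 the counts were 4 higher and 1 lower, and the methods' t-test after the same adjustment called 2, Egfr and Erbb2. Over all genes tested, 7.53% were called higher and 8.96% lower by limma after adjustment. The methods' test called 1389 of the 14137 genes after adjustment and 4765 without it. No unadjusted count by limma is given for all genes, so nothing is read from the counts of 4 and 1. Egfr and Erbb2 were well above background on all 8 arrays, but Btc passed the filter only through its KO arrays, so the count of 3 is a description. The KO arrays lay wholly above the WT arrays for the same 3 genes, whereas 24.1% of all genes tested had genotypes that did not overlap. The 3 receptors tested all had positive differences, with a median of 0.88 on the log2 scale. Of the 4 ligands tested 3 had negative differences, none of them called, and the median of the 4 was -0.67. The median over all genes tested was -0.02. With no filter, Erbb4 (0.48), Areg (0.44) and Tgfa (0.43) had positive differences, none of them called. The balance of signs among the ligands thus depends on the filter.

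**Figure D1:**
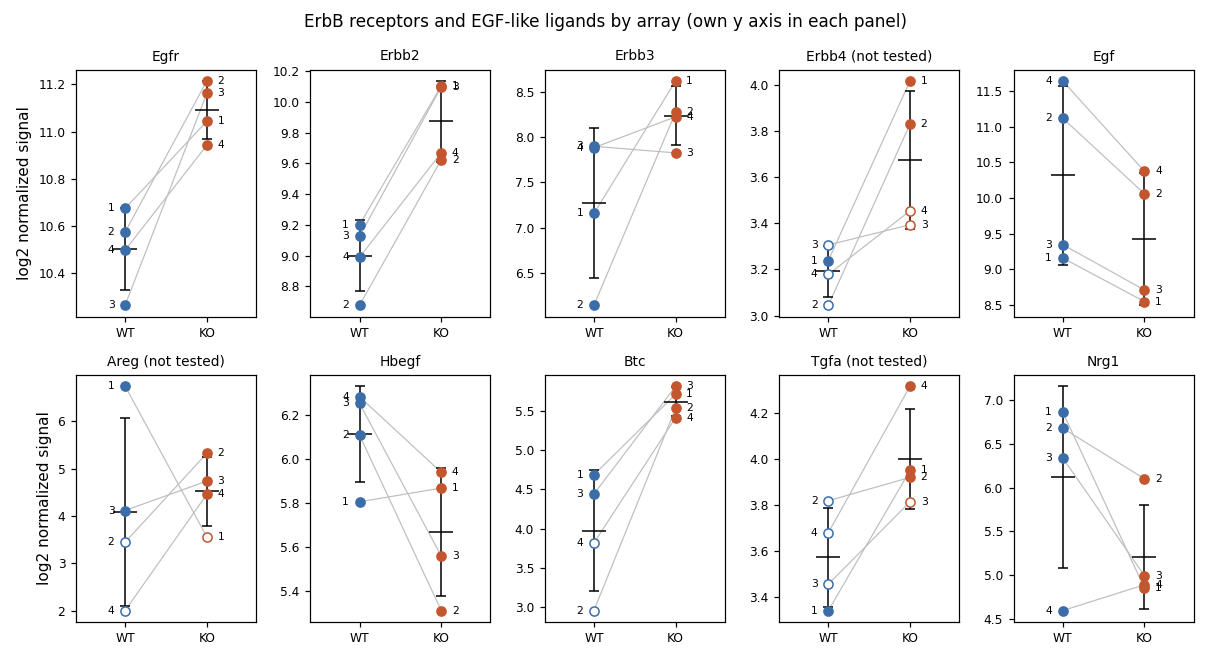
Log2 normalised intensity of the brightest probe of each of the 10 genes on the 4 WT and the 4 KO arrays, with the mean and SD of each genotype. The 4 KO points lie above the 4 WT points for Egfr, Erbb2 and Btc, and genotypes overlap for Erbb3, Egf, Hbegf and Nrg1; Erbb4, Areg and Tgfa did not pass the filter on dim probes and were not tested.

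Egfr encodes the receptor of EGF and amphiregulin. Its brightest probe read 10.67, 10.57, 10.26 and 10.50 in the 4 WT glands and 11.04, 11.21, 11.16 and 10.94 in the 4 KO glands. Every KO gland was above every WT gland. The means were 10.50 ± 0.18 in WT and 11.09 ± 0.12 in KO (SD, n = 4 each), a difference of 0.59 ± 0.12 (SE), or 1.5-fold (limma, adjusted p = 0.0196; 95% confidence interval 0.32 to 0.86). Without KO replicate 2 the adjusted p of Egfr was 0.0521 and without KO replicate 3 it was 0.0618.

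The 4 Egfr probes fell into 2 pairs by the transcript the array design names for them. RefSeq transcript NM_207655 encodes the full-length receptor, while NM_007912 is a shorter transcript, and the probes were assigned by these accessions alone because their sequences were not used here. The second NM_207655 probe read 8.33, 8.33, 8.45 and 8.27 in WT and 8.87, 8.90, 8.91 and 8.67 in KO. It was higher in KO without overlap, by 0.49 (limma, adjusted p = 0.0203 over 20838 probes). The 2 NM_007912 probes overlapped between genotypes. The first of these read 8.93, 8.96, 9.04 and 8.69 in WT and 9.12, 8.81, 8.84 and 8.92 in KO, a difference of 0.02 (interval -0.25 to 0.29; adjusted p = 0.925). The other differed by 0.13 (interval -0.08 to 0.35; adjusted p = 0.328).

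Within each array, the mean of the NM_207655 probes minus the mean of the NM_007912 probes was 0.72, 0.64, 0.47 and 0.76 in WT and 0.95, 1.29, 1.24 and 0.95 in KO. The lowest KO value was above the highest WT value. The mean was 0.65 ± 0.13 in WT and 1.11 ± 0.18 in KO (SD, n = 4 each), a difference of 0.46. This contrast was chosen after the probe values were seen, so it is a description with no test, and it does not show that the shorter transcript was unchanged. When all Egfr probes were averaged, the difference of the gene was 0.31 (adjusted p = 0.0450).

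**Figure D2:**
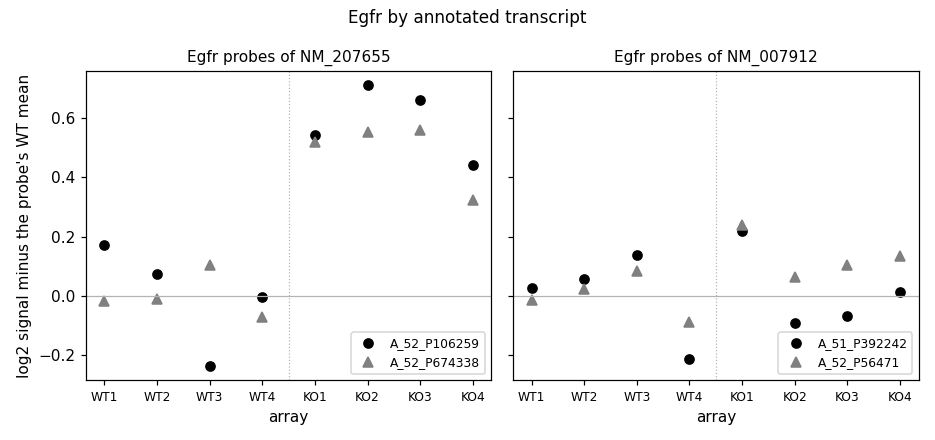
Log2 normalised intensity of the 2 Egfr probes assigned to transcript NM_207655 and the 2 assigned to NM_007912, by array and genotype. Both NM_207655 probes are higher on every KO array than on any WT array, while the ranges of the NM_007912 probes overlap.

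Erbb2 read 9.20, 8.68, 9.12 and 8.99 in WT and 10.10, 9.62, 10.10 and 9.67 in KO. The genotypes did not overlap. The mean rose from 9.0 ± 0.23 to 9.87 ± 0.26 (SD, n = 4 each), a difference of 0.88 ± 0.17 (SE), or 1.84-fold (limma, adjusted p = 0.0171; interval 0.49 to 1.26). Its other probe, which was well above background on 3 WT and all 4 KO arrays and so passed the filter only through KO, differed by 0.97 (adjusted p = 0.0175 over all probes). Without KO replicate 3 the adjusted p of Erbb2 was 0.0542.

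Erbb3, the neuregulin receptor with a weak kinase of its own, did not pass the test on its brightest probe. That probe read 7.16, 6.14, 7.90 and 7.88 in WT and 8.62, 8.27, 7.82 and 8.22 in KO. The WT values spread widely and KO replicate 3 lay within them. The difference was 0.96 ± 0.38 (SE; limma, adjusted p = 0.107; interval 0.10 to 1.83). The other 3 Erbb3 probes also had positive differences. A dimmer probe read 4.42, 3.79, 4.45 and 4.68 in WT and 5.43, 5.47, 5.04 and 5.03 in KO, 0.91 apart (adjusted p = 0.0257 over all probes). Another read 4.8, 3.42, 4.78 and 5.19 in WT and 5.96, 5.92, 5.58 and 5.60 in KO, 1.22 apart (adjusted p = 0.0463). On both of these the genotypes did not overlap, and both were well above background on 3 of the 4 WT arrays and passed the filter only through KO. The remaining probe differed by 1.12 (adjusted p = 0.0821). WT replicate 2 held the lowest value on the brightest probe and on both called probes.

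Erbb4 was close to background in both genotypes. The brightest of its 3 probes read 3.24, 3.04, 3.31 and 3.18 in WT and 4.02, 3.83, 3.39 and 3.45 in KO, and it was well above background on 1 WT and 2 KO arrays. All KO values were above all WT values on this probe, most of them near background. On the other probes the genotypes overlapped, with differences of 0.19 and -0.10. Erbb4 was not tested in the main comparison. When no filter was applied the difference was 0.48 (limma, adjusted p = 0.0889).

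Over the probes of the 10 genes, 14 of 23 passed the filter. Of these, 7 were called, all higher in KO, and they belonged to Egfr (2), Erbb2 (2), Erbb3 (2) and Btc (1). Over all probes tested, 14.8% were called in either direction. The called probes of Btc and Erbb3 and 1 of Erbb2, 4 of the 7, passed the filter only through the KO arrays where they were high, so nothing is read from this count or from its direction. Probes of 1 gene share its transcripts and are not independent of each other.

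**Figure D3:**
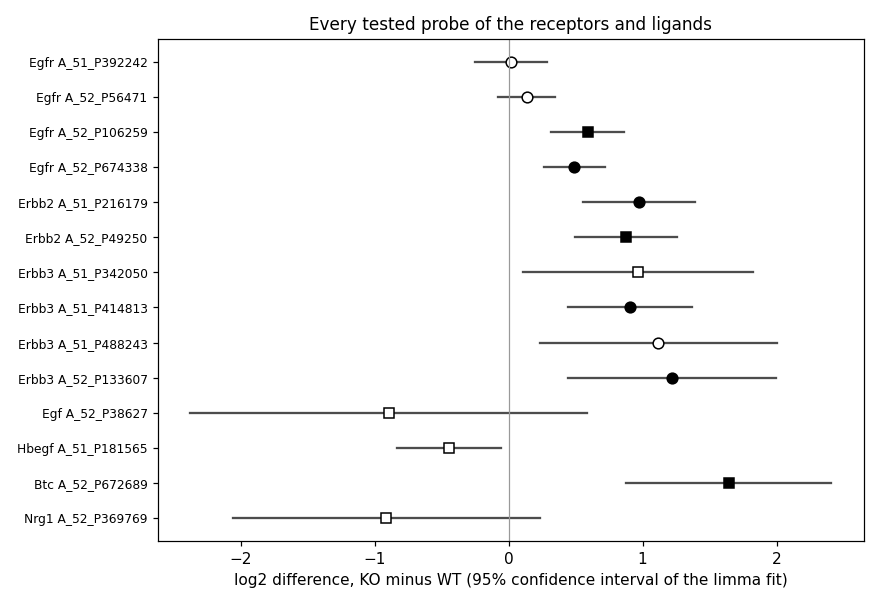
Difference in log2 normalised intensity between KO and WT for each tested probe of the ErbB receptors and ligands, with its 95% confidence interval. The called probes belong to Egfr, Erbb2, Erbb3 and Btc and lie above 0, and the intervals of Egf and Nrg1 span 0.

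Among the ligands, Btc was the one called. Betacellulin binds both EGFR and ErbB4. Its tested probe read 4.69, 2.96, 4.44 and 3.82 in WT and 5.71, 5.53, 5.81 and 5.41 in KO. The KO values were close together and all above the WT values, which spread over a wider range. The mean was 3.98 ± 0.77 in WT and 5.62 ± 0.18 in KO (SD, n = 4 each), a difference of 1.64 ± 0.34 (SE), or 3.12-fold (limma, adjusted p = 0.0205; interval 0.86 to 2.42). The probe was dim, and only WT replicates 1 and 3 were well above background, as were all 4 KO arrays, so Btc passed the filter only through KO and its fold rests partly on WT values at background. With no filter its adjusted p was 0.0348. Normexp background correction added an offset of 50, which shrinks the differences of dim probes. With it the difference of Btc was 0.55, with an adjusted p of 0.0113 (limma). Without KO replicate 1 its adjusted p was 0.0558, and without KO replicate 3 it was 0.0618. A second Btc probe was at background level and was not tested.

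Egf, which is secreted into milk, read 9.16, 11.12, 9.35 and 11.65 in WT and 8.55, 10.06, 8.71 and 10.38 in KO. In both genotypes replicates 2 and 4 were high and replicates 1 and 3 were low, so the genotypes overlapped. The difference was -0.90 ± 0.66 (SE) with an interval from -2.40 to 0.61 (limma, adjusted p = 0.356). When WT and KO arrays were paired by number, the KO value was lower in 4 of 4 pairs, with differences of -0.61, -1.06, -0.64 and -1.27. In the fit blocked on that number the SE of Egf was 0.15 and its adjusted p was 0.0202, and 10.8% of all genes tested were called lower in that fit. Egf was thus called only when arrays were paired by number. The data do not single out this pairing, because over all genes 4 of 12 pairs of WT and KO arrays with different numbers also deviated together, up to a correlation of 0.34 for WT replicate 1 and KO replicate 3.

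Hbegf and Nrg1 did not pass the test. Hbegf read 5.80, 6.11, 6.25 and 6.28 in WT and 5.87, 5.31, 5.56 and 5.94 in KO, a difference of -0.44 ± 0.17 (SE; limma, adjusted p = 0.103). WT replicate 1 lay within the KO range. Nrg1, the neuregulin that binds ErbB3 and ErbB4, read 6.87, 6.68, 6.34 and 4.59 in WT and 4.85, 6.10, 4.99 and 4.89 in KO. WT replicate 4 was below all KO arrays and KO replicate 2 was above the other KO arrays. The difference was -0.91 ± 0.51 (SE; adjusted p = 0.229), and without WT replicate 4 Nrg1 was called lower, with a difference of -1.42 (adjusted p = 0.0340).

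Areg and Tgfa were too dim to be tested. Areg read 6.74, 3.45, 4.12 and 2.01 in WT and 3.56, 5.32, 4.74 and 4.46 in KO, and was well above background on 2 WT and 3 KO arrays. Its highest and its lowest value were both in WT glands. Tgfa read 3.34, 3.82, 3.46 and 3.68 in WT and 3.95, 3.92, 3.81 and 4.32 in KO, and was well above background on 1 WT and 3 KO arrays. KO replicate 3 lay just within the WT range. When no filter was applied, Areg differed by 0.44 (limma, adjusted p = 0.789) and Tgfa by 0.43 (adjusted p = 0.109).

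Each slide carried 4 arrays, and 1 WT and 1 KO array shared each position on their slides. At positions 1 to 4 the KO minus WT difference of Egfr was 0.47, 0.54, 0.68 and 0.67, that of Erbb2 was 1.43, 0.42, 0.54 and 1.11, and that of Btc was 2.75, 0.85, 0.97 and 1.99. All were positive. With position as a block the adjusted p was 0.0724 for Egfr, 0.0817 for Erbb2 and 0.0759 for Btc, and 0.969% of all genes tested were called in either direction. Over all genes, the WT and KO arrays at positions 1 to 4 deviated from their genotype means in opposite directions (correlations -0.19, -0.17, -0.32 and -0.27). The part of position in the results was not tested. Without WT replicates 2 and 3 the differences were 0.51 (limma, adjusted p = 0.144), 0.78 (0.134) and 1.37 (0.0904). None of the 7 genes was called in that fit, and only 78 of all 14137 genes tested were. WT replicates 2 and 3 were left out after their T cell genes were seen.

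The promoters of the 3 called genes are shown because the data give their transcript levels in a mouse without a transcription factor. Each line holds the 150 bases just upstream of the RefSeq transcript start (GRCm38.p6), 5′ to 3′ on the strand of the gene, and capitals mark the GC box CCGCCC, the complement of GGGCGG.
Egfr, chr11:16752053-16752202 (+): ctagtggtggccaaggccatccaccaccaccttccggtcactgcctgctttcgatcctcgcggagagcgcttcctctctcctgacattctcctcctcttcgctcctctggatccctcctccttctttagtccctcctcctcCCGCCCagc
Erbb2, chr11:98412334-98412483 (+): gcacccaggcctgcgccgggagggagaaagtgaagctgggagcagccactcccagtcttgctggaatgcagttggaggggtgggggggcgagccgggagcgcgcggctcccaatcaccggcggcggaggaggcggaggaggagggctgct
Btc, chr5:91402995-91403144 (-): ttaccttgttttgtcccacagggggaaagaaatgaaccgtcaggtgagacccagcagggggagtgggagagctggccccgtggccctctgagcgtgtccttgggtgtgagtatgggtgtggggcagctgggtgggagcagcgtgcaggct
The GC content of these windows was 61.3%, 71.3% and 62% in the same order, against a median of 54% over 32851 promoters. A set of 5 motifs was searched on both strands of the 250 bases upstream, namely the GC box GGGCGG, an AP-2 motif GCCNNNGGC, an AP-1 motif TGANTCA, a STAT motif TTCNNNGAA and the TATA box TATAAA. Egfr held 1 GC box and none of the other motifs, and neither Erbb2 nor Btc held any of the 5. The GC box is in 32.7% of all promoters, the AP-2 motif in 13.7%, the AP-1 motif in 6.75%, the STAT motif in 7.02% and the TATA box in 12.4%. A match is a description of the letters and not of binding, and no motif of Th-POK was searched. The table held 7 of the 10 genes and lacked Erbb3, Hbegf and Nrg1.

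Genes around the receptors were taken from 5 lists, of which 63 genes were tested, 9 were called higher and 2 lower, against 7.53% and 8.96% of all genes. Of 5 further EGF-like ligands, 2 were tested and neither was called by limma, by an unadjusted p under 0.05 or by the methods' t-test. Epgn, the ligand epigen, differed by 0.59 (limma, adjusted p = 0.259). Of 11 genes that process ligands at the cell surface, 9 were tested and 1 was called. It was Rhbdf2, which encodes the iRhom protein that carries the sheddase ADAM17 to the surface, higher by 0.74 ± 0.13 (SE; adjusted p = 0.0133). The list's median difference was 0.23.

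All 23 genes for receptor adaptors and kinases were tested, with 4 called higher, 1 lower and a median of 0.21. Gab2, a docking protein for growth factor receptors, was not well above background on any WT array and was at least 1.56-fold higher in KO (limma, adjusted p = 0.00669). It passed the filter only through KO. With normexp background correction its difference was 0.21 (limma, adjusted p = 0.0660) and Gab2 was no longer called. That correction added an offset of 50, which shrinks the differences of dim probes, so 0.21 cannot be set against the bound of 1.56-fold. Its relative Gab1, which binds activated EGFR, was higher by 0.86 (adjusted p = 0.0293). Eps15, an endocytic substrate of EGFR, was higher by 0.47 (0.0247), and the GTPase gene Nras by 0.60 (0.0308). Map2k1, the kinase upstream of ERK, fell by 0.50 (adjusted p = 0.0381) and is named after its value was seen. Of 22 genes for feedback and receptor turnover, 20 were tested, 2 were called higher and 1 lower, with a median of 0.07. Socs5, which lowers EGFR levels, differed by 0.55 (0.0313), and Lrig2 by 0.37 (0.0422). Rnf41, which encodes a ubiquitin ligase that removes ErbB3, differed by -0.47 (0.0472).

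Of 12 genes that respond to ERK, 9 were tested and 2 were called, both higher, with a median of 0.30. Of the 9 differences 6 were positive and 3 negative, including Etv4 (-0.50) and Etv5 (-0.50), neither of which was called. Ier3, an immediate early gene, read 8.75, 7.50, 8.17 and 10.001 in WT and 10.41, 10.48, 10.57 and 10.11 in KO. All KO values were above the WT values, of which replicate 4 came near them. The difference was 1.79 ± 0.46 (SE; limma, adjusted p = 0.0351). Egr1 was higher by 0.96 (0.0435). The count of 11 called genes over the 5 lists moved by more than 1.5 times when 1 array was left out, to 17 without WT replicate 1, 2 without WT replicate 2, 2 without WT replicate 3, 6 without WT replicate 4, 3 without KO replicate 1, 4 without KO replicate 2 and 2 without KO replicate 3. Without WT replicates 2 and 3 together it was 1. Calls over all genes moved in these fits too. They went from 2331 to between 515 and 3070 with 1 array left out, and to 78 without WT replicates 2 and 3.

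**Figure D4:**
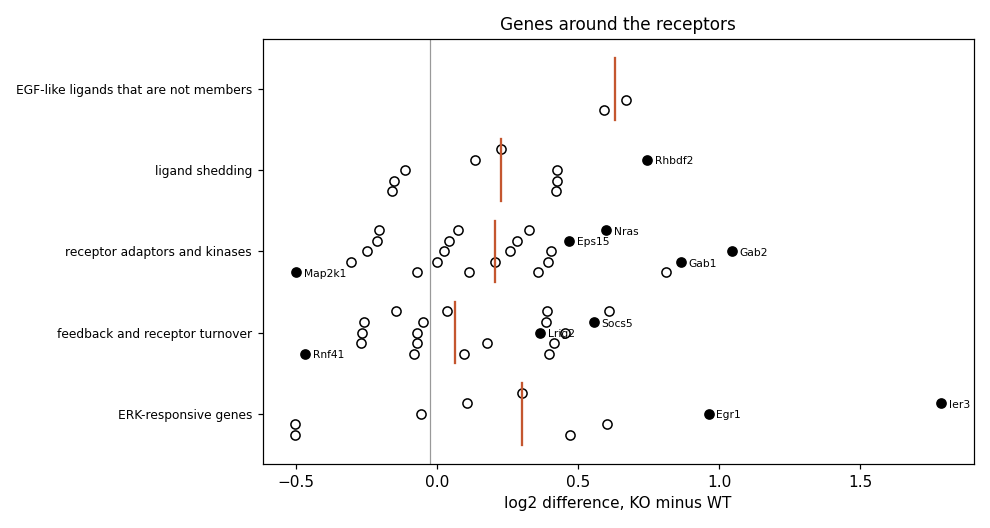
Difference in log2 normalised intensity between KO and WT for every tested gene of the 5 lists around the ErbB receptors, with called genes marked and the median of each list. The medians lie between 0.07 and 0.63, against -0.02 over all genes tested.

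Markers of other cell types were set beside these results. The mean log2 level over 10 luminal and alveolar genes was 15.54 to 15.72 in WT and 15.77 to 15.89 in KO, and 3 of the 10 were called higher, Cdh1 (0.88), Krt18 (0.67) and Epcam (0.52). Of the 10 differences 8 were positive and 2 negative, Elf5 (-0.35) and Lalba (-0.45), neither of which was called. The milk protein genes Csn2 and Wap of the same list differed by 0.01 and 0.07. Both were among the brightest genes, to which quantile normalisation gives nearly the same values on every array. Wap, for example, read 18.44 on WT replicates 2 and 3 and on KO replicate 2. These small differences therefore do not show that the milk protein genes were unchanged. Cdh1 and Krt18 differed by about as much as Erbb2 and Egfr, but they had the largest differences of the list, whose median was 0.17. The part of epithelial content in the results was not tested.

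The hormone-sensing luminal list was 8.39 to 8.77 in WT and 8.28 to 8.97 in KO, with 8 of 10 genes tested and Foxa1 called higher. Pgr and Tnfsf11 of that list were too dim to be tested. The basal list was 12.33 to 12.85 in WT and 12.25 to 12.54 in KO, with Krt17 of 10 called lower. The adipocyte list was 12.47 to 13.14 and 13.01 to 13.25, with Cfd and Plin1 of 10 called higher. The fibroblast list was 12.71 to 13.03 and 12.96 to 13.52, with all 10 differences positive and Dcn called. No gene of the endothelial list (10 tested) or the macrophage list (9 tested) was called by limma or by the methods' t-test, and 2 and 0 of them had an unadjusted p under 0.05. Of the T cell list 8 of 10 were tested and Cd3e and Cd4 were called lower. The neutrophil list was 7.61 to 8.29 in WT and 9.74 to 10.81 in KO, with 6 of 10 tested. Ngp, Camp and Ltf were called higher, of which Ngp and Camp passed the filter only through KO. Ltf was bright in both genotypes, with a mean of 16.27 in WT and 17.58 in KO. Which cells of the gland Ltf came from was not tested, so its call is not read as a sign of neutrophils. Ngp and Camp were not well above background on any WT array, so the gap between the ranges of the list rests partly on them. The part of these cells in the results on ErbB receptors and ligands was not tested.

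The genes whose levels followed each called gene most closely were found by Pearson's r over the 8 arrays after the mean of each genotype was removed. They were Sulf2 (0.985), Cybrd1 (0.982) and Rhoc (0.982) for Erbb2, Rbak (0.979), Mamdc4 (0.961) and Egfl8 (0.944) for Egfr, and BC006965 (0.992), Hmga2 (0.992) and Add1 (0.989) for Btc. The arrays share slides and positions, and with 14137 genes to choose from and 8 arrays such values describe these arrays only.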

How the data were processed

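RNA of 8 glands was measured on 8 one-colour Agilent arrays. The deposited intensities are the authors' scanner output from Feature Extraction, background-subtracted per spot and not normalised between arrays. The study used quantile normalisation in GeneSpring, and the authors' deposited table of log2 values served as an alternative. Here outlier spots were left out, the log2 intensity was quantile-normalised over non-control spots, and spots of a probe were averaged. A probe was kept if well above background, by over 0.5 of its spots, on all 4 arrays of a genotype. The brightest probe stood for a gene, named as in the array design. KO and WT were compared with limma 3.58.1 in R 4.3.3, with Benjamini-Hochberg adjustment over all 14137 genes and a threshold of 0.05. Differences are on the log2 scale of the intensities, and fold changes are these differences turned back to the linear scale.

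The genes and lists were chosen with earlier results of these data known. Named are all 10 genes and, of each list around the receptors, up to 4 called genes with the smallest p, or the 1 with the smallest p where none was called. Alternatives changed the scaling, background correction, filter, probe rule, test, blocks and arrays used. The mean signal was not used in the normexp correction, which took the median signal and added an offset of 50. Replicate numbers come from the sample titles. Arrays of the same number deviated together in all 4 pairs (correlation of deviations from the genotype means 0.16 to 0.30, different numbers -0.32 to 0.34 and -0.08 on average). By the rule that every such correlation exceed 0.1 the numbers were taken as pairs for the replicate block, which is an alternative, and for the differences by pair. The comparison as reported used no block. Among pairs of different numbers, 4 of 12 exceeded 0.1 too. On simulated data over 14137 genes for the same comparison, 67 of 100 genes changed by 1 on the log2 scale and 92 of 100 changed by 2 were called. So were 12 unchanged genes. Only these sampled genes were changed in the simulation, far fewer than the 2331 called in the data. The adjustment therefore works differently there, and these shares need not hold for the reported comparison. The depth of an array experiment is set by its number of arrays, 4 per genotype.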

Additional observations from a re-analysis of the deposited data

Results flagged for a closer look

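Over 46 sets of 4 arrays, 1 for each probe of the ErbB receptors and ligands in each genotype, 5 held an array far from the other 3, where chance gives about 1 in 20. The second NM_207655 probe of Egfr read 8.67 in KO replicate 4 against 8.87 to 8.91 in the other KO glands, which was still above every WT gland. The brightest Nrg1 probe read 6.10 in KO replicate 2 against 4.85 to 4.99. Another Nrg1 probe read 2.60 in WT replicate 4 against 4.04 to 4.33. The remaining sets were probes at background level, where Erbb4 read 1.80 in WT replicate 1 against 1.41 to 1.46 and Btc read 1.71 in WT replicate 1 against 1.57 to 1.59.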

How the results depend on the processing

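Over 19 alternatives no difference of the 7 tested genes changed direction. Erbb2 was called in 16, Egfr in 15, Btc in 14, Egf and Nrg1 in 1 each, and Erbb3 and Hbegf in none. The comparison as reported called 2331 genes, 3 of the ErbB receptors and ligands and 11 genes of the 5 lists. With array position as a block these were 137, 0 and 0. The replicate block called 2762, 4 and 13, and beside Egf it changed no call of the 7 genes. Leaving out 1 array each gave 515 to 3070 genes, 0 to 4 of the 7 (0 without KO replicate 3) and 2 to 17 of the lists. Without WT replicates 2 and 3, chosen after seeing the data, they were 78, 0 and 1. The methods' t-test called 1389 genes and 5 of the lists after adjustment, with an adjusted p for Btc of 0.0545, and 4765 genes without adjustment. No filter gave 6 genes of the lists, and taking every probe as a feature gave 4002 calls. Under 4 scalings the median difference of all genes was -0.05 to -0.02. Dim probes limit Btc, Areg, Tgfa and Erbb4, whose small signals over background leave their differences uncertain. The causes of these shifts were not tested.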
